A study of Mus musculus with 16 samples.

Results

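The NRF2 pathway was followed through 10 genes. They are the transcription factor NRF2 itself (Nfe2l2), its repressor Keap1, and 8 genes that NRF2 is known to drive: Nqo1, Gclc, Gclm, Srxn1, Txnrd1, Hmox1, Slc7a11 and Osgin1. They were picked by gene symbol from the annotation of the array, where 20 probe sets carried 1 of these symbols alone, out of 45101 probe sets deposited and 18193 genes measured. RNA of 16 liver samples of male C3H/HeJ mice was hybridised to Affymetrix GeneChip arrays, 1 array per sample. According to the design text the mice were given the liver carcinogen DEN (10 or 90 µg per g, at an age of 2 or 6 weeks) and, after 2 weeks without treatment, a diet with 0.05% phenobarbital (PB) or without it for 28 to 36 weeks. The dose that each mouse received is not given.

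The 4 groups were 7 Ctnnb1-mutated tumours from mice under PB, 3 non-tumour control livers under PB, 3 Ha-ras-mutated tumours from mice without PB, and 3 non-tumour control livers without PB (untreated controls). Ctnnb1 encodes β-catenin, and the sample labels spell it Ctnn1b in 1 field. The 2 mutations were never sampled under the same diet, so mutation and PB cannot be told apart between the tumour types. The labels give the PB course as 27 weeks in drinking water and another protocol text gives 28 days. They do not say whether the samples came from separate animals, so p-values measure the spread between these samples, which may be technical. The mutated gene Hras was not analysed here.

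In unstressed cells KEAP1 holds NRF2 in the cytoplasm and passes it to a ubiquitin ligase for degradation. Electrophiles and oxidants modify KEAP1, NRF2 then accumulates, pairs with a small MAF protein and binds antioxidant response elements, and BACH1 competes for the same elements. The targets make and recycle glutathione and thioredoxin, reduce quinones, degrade haem and conjugate or export foreign compounds, and the liver is a main site of this response. NRF2 is controlled mainly at the protein level, which arrays do not measure.

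All values are the deposited log2 expression levels. The arrays had medians between 5.03 and 5.10, and the lower quartile of their probe sets lay between 3.62 and 3.76, a range where a value may be background. Hepatocyte markers were high in every group, with a mean level of 14.02 to 14.39 over 6 genes per array. Cyp2b10, a cytochrome P450 that PB induces, was between 12.41 and 13.31 on the 10 arrays labelled PB and at most 8.93 on the other 6. PB control 6 stood apart: the 3′ control probe set of Gapdh exceeded its 5′ probe set by 2.70 there, against −0.15 to 0.32 on the other 15 arrays, a gap that widens with degraded RNA.

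Stretches of the members' promoters hold letters that match the elements of several transcription factors, and whether these are bound was not measured. RefSeq windows (GRCm38.p6) of 300 bases, from 250 before to 50 after the start site, were available for 8 of the 10 members, all but Gclc and Hmox1. They were searched on both strands for an antioxidant response element core (TGACNNNGC), an ATF4 element (TGATGNAA), a TCF element of β-catenin signalling (CTTTGAT) and an AP-1 element (TGANTCA), which can overlap the first. Each line holds a matched stretch of the named gene, 5′ to 3′ on the strand of the gene, with the match in capitals. The first 4 lines hold matches to the antioxidant response element core in Nfe2l2, Gclm, Txnrd1 and Srxn1. The fifth holds ATF4 matches in Slc7a11, and the last 2 hold AP-1 matches in Srxn1 and Osgin1.
Nfe2l2, chr2:75704884-75704913, minus strand: tcagcccaccTGACTCCGCcatgccccgga
Gclm, chr3:122245412-122245442, plus strand: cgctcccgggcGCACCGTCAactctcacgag
Txnrd1, chr10:82859104-82859133, plus strand: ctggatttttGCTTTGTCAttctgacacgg
Srxn1, chr2:152105542-152105571, plus strand: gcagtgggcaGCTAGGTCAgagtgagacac
Slc7a11, chr3:50443634-50443693, minus strand: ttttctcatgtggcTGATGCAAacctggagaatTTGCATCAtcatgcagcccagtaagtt
Srxn1, chr2:152105414-152105493, plus strand: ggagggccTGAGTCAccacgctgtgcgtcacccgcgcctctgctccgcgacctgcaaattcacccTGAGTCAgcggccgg
Osgin1, chr8:119437037-119437071, plus strand: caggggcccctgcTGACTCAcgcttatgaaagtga

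The antioxidant response element core was found in 4 of the 8 members with a window and in 12.4% of all 32851 windows. It began 240 bases before the start of Nfe2l2, 134 before that of Gclm and at base 29 after that of Srxn1. Txnrd1 had more than 1 window, and its match began 92 bases before 1 of its start sites. Slc7a11 was the 1 member of 8 with an ATF4 element, against 3.97% of windows, and held it on opposite strands 66 and 47 bases before its start. AP-1 elements stood in 2 of 8 members, 102 and 45 bases before the start of Srxn1 and 97 before that of Osgin1, against 7.81% of windows. The TCF element was in 0 of 8 members and 3.73% of windows. Members were counted by gene, over all windows of a gene that had several, and the background by window, so these shares are in unlike units. These matches describe the letters in short windows, and sequence farther from the start was not searched. Variants of the antioxidant response element core other than TGACNNNGC were not searched either, so a stretch named AP-1 may also hold one.

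The first comparison set the Ctnnb1 tumours against the non-tumour livers of the same treatment. Of the 10 members 5 rose and 0 fell: Srxn1, Nqo1, Gclm, Txnrd1 and Nfe2l2 (limma, Benjamini-Hochberg adjusted p under 0.05 over 18193 genes), where 12% of all genes passed, 6.07% as higher. The median change of the members was 0.70 (log2), against −0.03 over all genes. All 5 had every tumour above every PB control, which held for 5.96% of genes. PB control 6 had the lowest of the 3 control values in 4 of these 5, and without it 2 members rose, Gclm and Srxn1, against 7.35% of all genes. With the Gapdh gap as a covariate, 0 members passed, against 4.6% of genes.

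Srxn1, the sulfiredoxin that restores over-oxidised peroxiredoxins, was at 9.31, 8.78 and 9.06 in the PB controls and between 10.04 and 13.24 in the Ctnnb1 tumours, with a median of 10.90. The lowest tumour thus lay above the highest control, and tumour 7 stood well above the rest. Srxn1 rose 4.32-fold (log2 change 2.11 ± 0.45 SE, adjusted p = 0.00719), and its other 3 probe sets rose by 1.01 to 2.29. Without PB control 6 it passed as well. With the Gapdh gap as a covariate its change was 1.97 with an adjusted p of 0.0782.

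Nqo1, the quinone reductase most often used as a readout of NRF2, was at 6.60, 6.90 and 6.06 in the PB controls and between 7.28 and 10.22 in the tumours, with a median of 8.18. Its groups did not overlap, and the spread among the tumours was wide. The rise was 3.88-fold (1.96 ± 0.52, adjusted p = 0.0238). The call was lost without PB control 4 (2.00, adjusted p = 0.0578) and without PB control 6 (1.73, adjusted p = 0.113).

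Txnrd1, the cytosolic thioredoxin reductase, had levels of 10.50, 10.33 and 9.76 in the PB controls and of 10.65 to 11.21 in the tumours, with a median of 10.85. The highest control was close to the lowest tumour, and control 6 was the lowest array. Txnrd1 rose by 0.71 ± 0.16 (log2, adjusted p = 0.00779), and by 0.49 without PB control 6 (adjusted p = 0.0539). Its other 2 probe sets also rose, by 0.75 and 0.43 in the fit over all 45037 probe sets, where 8.45% passed, although the second lay below the lower quartile of the arrays in every group.

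Glutathione synthesis begins with glutamate-cysteine ligase, whose modifier subunit is Gclm and whose catalytic subunit is Gclc. Gclm was at 11.36, 11.20 and 10.56 in the PB controls and between 11.65 and 12.08 in the tumours, with a median of 11.88. The tumours lay close together and above all 3 controls, and Gclm rose by 0.82 ± 0.15 (log2, adjusted p = 0.00224), with 0.83 for its second probe set. With the Gapdh gap as a covariate the change was 0.52 (adjusted p = 0.0523). Gclc was at 12.03, 11.81 and 11.96 in the PB controls and between 11.96 and 12.75 in the tumours, with a median of 12.21. Its groups overlapped, and the difference of 0.40 ± 0.20 did not pass (adjusted p = 0.199). The other probe set of Gclc differed by 0.83 ± 0.30 and did not pass either (adjusted p = 0.0993).

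Slc7a11, the cystine importer xCT that supplies cysteine for glutathione, was low in most samples. It was at 4.10, 3.94 and 4.90 in the PB controls and between 4.62 and 9.20 in the tumours, with a median of 4.92, so that most of the tumours lay near the controls. The mean difference of 1.48 ± 0.74 did not pass (adjusted p = 0.215). A second probe set was at 3.07, 2.74 and 3.73 in the controls and between 4.36 and 9.44 in the tumours. It passed in the fit over all probe sets (2.86 ± 0.85, adjusted p = 0.048), with controls in the range where a value may be background. In both probe sets tumours 7, 1 and 3 were the highest.

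Nfe2l2 mRNA was at 10.08, 10.15 and 9.65 in the PB controls and between 10.38 and 11.12 in the tumours, with a median of 10.63. It rose by 0.70 ± 0.15 (log2, adjusted p = 0.00846), and by 0.54 without PB control 6 (adjusted p = 0.0603). Its second, weaker probe set differed by 0.45 ± 0.19 and did not pass (adjusted p = 0.165). Keap1 was at 9.27, 9.42 and 9.76 in the PB controls and between 8.86 and 9.40 in the tumours, with a median of 9.22. The difference of −0.29 ± 0.11 did not pass (adjusted p = 0.114), and the second probe set of Keap1 differed by 0.37 ± 0.17 in the other direction (adjusted p = 0.192). PB control 6 was the highest array for the first of these Keap1 probe sets and the lowest for the second.

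Hmox1, the inducible haem oxygenase, is also made by macrophages that clear red cells. It was at 6.76, 5.69 and 6.89 in the PB controls and between 5.65 and 6.64 in the tumours, with a median of 6.10. The difference of −0.34 ± 0.22 did not pass (adjusted p = 0.343), although without PB control 5, the low control, it did (−0.72, adjusted p = 0.0179). Among 12 Kupffer cell and macrophage markers 2 fell, where 1087 of all 18193 genes did. They were Clec4f, by 1.95 ± 0.49, and Folr2, by 1.42 ± 0.28 on the log2 scale. The list's mean level was 7.98 to 8.74 in the tumours and 8.57 to 9.29 in the PB controls. In bulk tissue fewer cells of a type and less RNA per cell cannot be told apart, and their part in the Hmox1 values was not tested. Osgin1, an oxidative stress-induced growth inhibitor, was at 10.02, 9.20 and 9.75 in the PB controls and between 9.83 and 10.56 in the tumours, with a median of 10.08. Its difference of 0.50 ± 0.25 did not pass (adjusted p = 0.212).

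**Figure D1:**
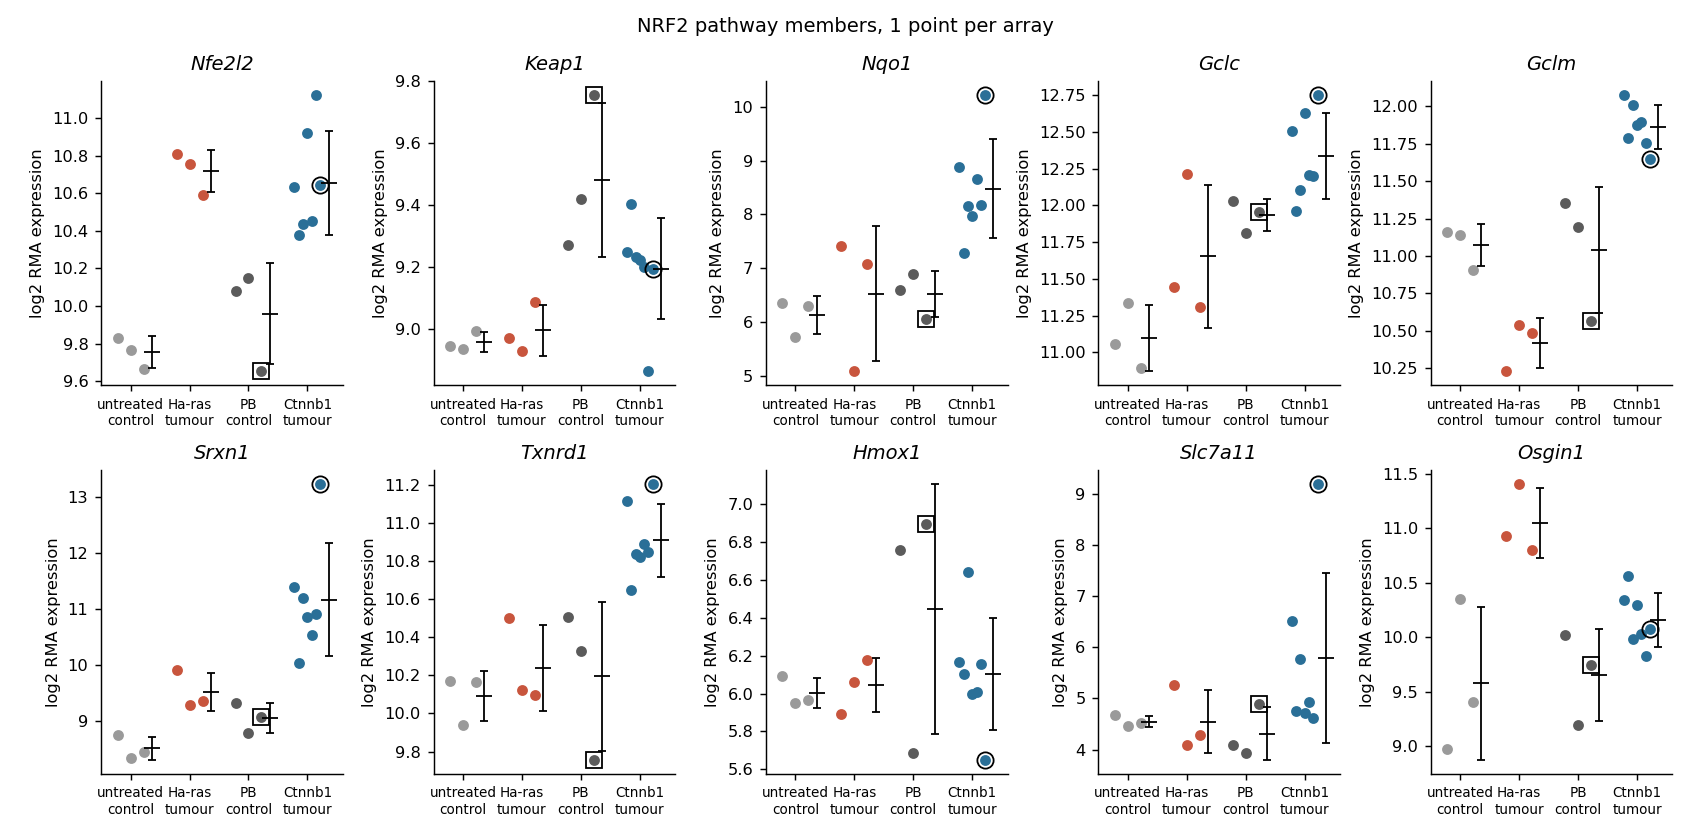
Levels of the 10 members (deposited log2 values, main probe set of each gene) on each array, by group, with the mean and SD as a bar; a circle marks Ctnnb1 tumour 7 and a square PB control 6. Srxn1 in the Ctnnb1 tumours ran from 10.04 to 13.24, above all 9 other arrays, while Hmox1 overlapped between all groups.

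The second comparison set the Ha-ras tumours against untreated controls. Nfe2l2 and Osgin1 rose and Gclm fell, 3 of 10 members, where 13.5% of all genes passed, 7.21% as higher and 6.33% as lower. The median change of the members was 0.27, against −0.04 over all genes. Nqo1, the quinone reductase, did not pass.

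Nfe2l2 was at 9.83, 9.77 and 9.67 in the untreated controls and at 10.81, 10.76 and 10.59 in the Ha-ras tumours. These groups did not overlap, which held upward for 16.3% of genes, and Nfe2l2 rose 1.95-fold (log2 change 0.96 ± 0.18, adjusted p = 0.00185). The second probe set of Nfe2l2 differed by 0.09 ± 0.23 (adjusted p = 0.887). Osgin1 was at 8.98, 10.35 and 9.41 in the controls and at 10.92, 11.41 and 10.80 in the tumours, and rose 2.77-fold (1.47 ± 0.30, adjusted p = 0.00308). Every Ha-ras tumour exceeded every other array of the study for Osgin1. Both calls held when any of the 6 arrays was left out, but that of Nfe2l2 did not when its probe sets were averaged (0.52, adjusted p = 0.0673).

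Gclm was at 11.16, 11.14 and 10.91 in the untreated controls and at 10.23, 10.54 and 10.49 in the Ha-ras tumours. All 3 tumours lay below all 3 controls, which held downward for 18.5% of genes. Gclm fell by 0.65 ± 0.17 on the log2 scale (adjusted p = 0.0193), and its second probe set differed by −0.41 ± 0.26 without passing (adjusted p = 0.405). The call was lost without untreated control 1 (−0.61, adjusted p = 0.0733), without untreated control 2 (−0.62, adjusted p = 0.0658) and without Ha-ras tumour 1 (−0.56, adjusted p = 0.0906), and when its probe sets were averaged (−0.53, adjusted p = 0.104).

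Nqo1 was at 6.37, 5.72 and 6.30 in the untreated controls and at 7.41, 5.10 and 7.09 in the Ha-ras tumours. Tumours 1 and 3 were above the controls and tumour 2 below them, and the difference was 0.40 ± 0.62 (adjusted p = 0.75). Srxn1 was at 8.74, 8.34 and 8.44 in the controls and at 9.90, 9.29 and 9.35 in the tumours. Its groups did not overlap, but the difference of 1.01 ± 0.54 did not pass (adjusted p = 0.258). The standard error comes from a spread shared by all groups, and when only these 6 arrays were fitted the same difference passed (adjusted p = 0.0125). Gclc was at 11.06, 11.34 and 10.90 in the controls and at 11.44, 12.21 and 11.31 in the tumours, a difference of 0.56 ± 0.23 that did not pass (adjusted p = 0.133). On their main probe sets Keap1, Txnrd1, Hmox1 and Slc7a11 differed by −0.00 to 0.15 and did not pass. Other probe sets differed by −0.29 and −0.21 for Txnrd1, 0.00 for Keap1, 0.28 for Slc7a11 and 0.46 for Gclc. Those of Srxn1 differed by 0.95, 0.76 and −0.14. None of these passed in the fit over all probe sets.

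**Figure D2:**
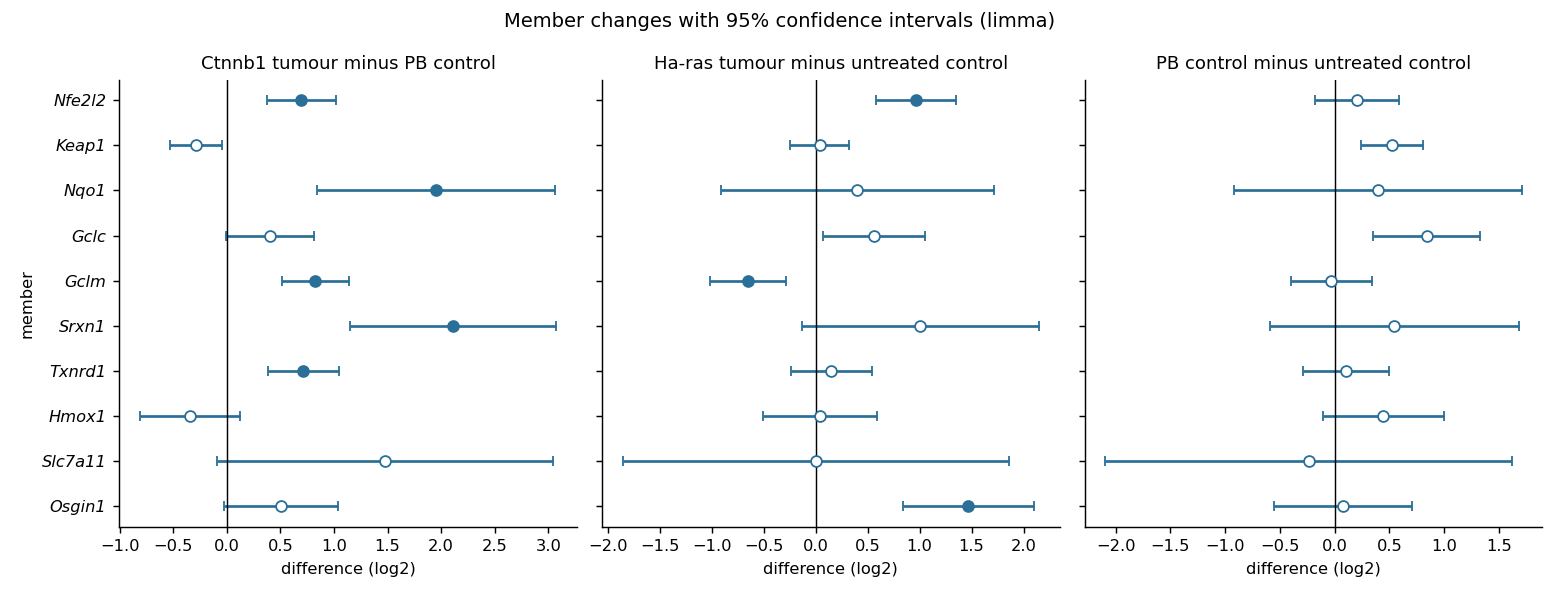
Differences (log2, x axis) of each member in Ctnnb1 tumours minus PB controls, Ha-ras tumours minus untreated controls and PB minus untreated controls, with 95% confidence intervals from limma; filled points passed at an adjusted p under 0.05. Filled points are 5 members in the first panel, 3 in the second and 0 in the third, and Gclm lies to the right of 0 in the first and to the left in the second.

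The interaction asked whether a change in the Ctnnb1 tumours differed from that in the Ha-ras tumours, each against its own controls. Of the 10 members 1 passed, Gclm, where 5.43% of all genes did. The 2 changes of Gclm differed by 1.48 ± 0.23 (log2, adjusted p = 0.000984), and this call held when any of the 16 arrays was left out. The second probe set of Gclm differed by 1.24 ± 0.34 (adjusted p = 0.0581). A second probe set of Txnrd1 also passed in the fit over all probe sets (1.04 ± 0.23, adjusted p = 0.0168), where 3.34% did, while its main probe set did not (0.57 ± 0.24, adjusted p = 0.216).

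The other members gave no interaction past the threshold. The difference was 1.56 ± 0.81 for Nqo1 (adjusted p = 0.33), 1.10 ± 0.70 for Srxn1 (adjusted p = 0.444) and −0.27 ± 0.24 for Nfe2l2 (adjusted p = 0.618). Osgin1, with −0.97 ± 0.39 (adjusted p = 0.186), passed when untreated control 2, its high control, was left out (−1.35, adjusted p = 0.0291). The 95% intervals were wide, from −0.17 to 3.28 for Nqo1 and from −0.39 to 2.60 for Srxn1, so that these data fix the size of such a difference poorly.

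Set directly against the Ha-ras tumours, the Ctnnb1 tumours had higher levels of Gclm, Nqo1, Srxn1, Gclc and Txnrd1 and a lower level of Osgin1, 6 of 10 members where 15.1% of all genes passed. Gclm was 2.72-fold higher (1.44 ± 0.15, adjusted p = 4.5e-06), Nqo1 3.86-fold (1.95 ± 0.52, adjusted p = 0.0181), Srxn1 3.14-fold (1.65 ± 0.45, adjusted p = 0.0209), Txnrd1 1.59-fold (0.67 ± 0.16, adjusted p = 0.00712) and Gclc 1.61-fold (0.68 ± 0.20, adjusted p = 0.0254). For Osgin1 the difference was −0.89 ± 0.25 (adjusted p = 0.0238), with all 7 Ctnnb1 tumours below all 3 Ha-ras tumours, which held for 8.57% of genes. Nqo1 and Gclc overlapped between the tumour types, through Ha-ras tumour 1 and Ha-ras tumour 2 respectively. In the fit over all probe sets, where 10.3% passed, the second of Gclc did not pass (0.60, adjusted p = 0.256). Srxn1 probe sets at 1.42 (adjusted p = 0.116) and 0.84 (adjusted p = 0.0653) did not pass either. Other probe sets of Gclm (0.85), Txnrd1 (0.62 and 0.44) and Srxn1 (1.71) passed. With its probe sets averaged Gclc did not pass (0.64, adjusted p = 0.073). Nfe2l2 differed by −0.06 ± 0.15 (adjusted p = 0.862), with an interval from −0.39 to 0.26.

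Several of these calls were lost when a single Ha-ras tumour was left out. Ha-ras tumour 2 was low for Nqo1 and high for Osgin1 and Gclc. Without it 3 members passed, where 10.8% of all genes did, against 15.1% with all arrays. The differences without it were 1.23 for Nqo1 (adjusted p = 0.156), 1.54 for Srxn1 (adjusted p = 0.0902) and −0.71 for Osgin1 (adjusted p = 0.147). Without Ha-ras tumour 1 the calls of Gclc (0.58, adjusted p = 0.148) and Osgin1 (−0.95, adjusted p = 0.0618) were lost. Without Ha-ras tumour 3 those of Gclc (0.51, adjusted p = 0.149) and Srxn1 (1.57, adjusted p = 0.0742) were lost. When only the arrays of the 2 tumour groups were fitted, Gclc (adjusted p = 0.0538) and Srxn1 (adjusted p = 0.0559) did not pass. Gclm and Txnrd1 passed under every omission of a single tumour.

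PB alone, in non-tumour liver, moved 0 of the 10 members past the threshold, where 0.214% of all genes passed. At an unadjusted p under 0.05 there were 2 members, Keap1 and Gclc, and 13.6% of all genes. Keap1 was at 8.94, 8.93 and 8.99 without PB and at 9.27, 9.42 and 9.76 with it, a difference of 0.52 ± 0.13 (adjusted p = 0.118). Gclc was at 11.06, 11.34 and 10.90 without PB and at 12.03, 11.81 and 11.96 with it, a difference of 0.84 ± 0.23 (adjusted p = 0.136). On the main probe sets of Keap1, Gclc and Srxn1 every PB control lay above every untreated control, which held for 9.4% of genes. Their other probe sets did not all run the same way. The second probe set of Keap1 was lower in every PB control (difference −0.37), as was the weakest of Srxn1 (−0.32), and the groups overlapped on the second of Gclc (0.24). Txnrd1 differed by 0.10 on its main probe set, while its other probe sets were lower in every PB control (−0.42 and −0.20). On main probe sets every PB control was lower for 1717 of 18193 genes. Nqo1 differed by 0.39 ± 0.62 (adjusted p = 0.825) and Nfe2l2 by 0.20 ± 0.18 (adjusted p = 0.654). The PB controls are shared with the Ctnnb1 comparison, so a value that is high in them enters both.

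The order of the group means differed between members. Nfe2l2 was highest in Ha-ras tumours (10.72 ± 0.11 SD, n = 3) and Ctnnb1 tumours (10.66 ± 0.28, n = 7), which did not differ past the threshold, and lower in PB controls (9.96 ± 0.27, n = 3) and untreated controls (9.75 ± 0.08, n = 3), which also did not. Nqo1 had 1 high group, the Ctnnb1 tumours (8.48 ± 0.92), and 3 groups between 6.13 and 6.53. Gclc went from the Ctnnb1 tumours (12.34 ± 0.29) through the PB controls (11.93 ± 0.11) and the Ha-ras tumours (11.65 ± 0.49) to the untreated controls (11.10 ± 0.22), with no neighbouring pair past the threshold where it was tested. Gclm was the only member whose lowest group was the Ha-ras tumours while its highest was the Ctnnb1 tumours, with 10.42 ± 0.16 and 11.86 ± 0.15 on either side of 2 control groups at 11.04 and 11.07.

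Srxn1 descended from the Ctnnb1 tumours (11.16 ± 1.01) through the Ha-ras tumours (9.51 ± 0.34) and the PB controls (9.05 ± 0.27) to the untreated controls (8.51 ± 0.21). Txnrd1 had the Ctnnb1 tumours at 10.91 ± 0.19 and the other groups at 10.09 to 10.24. Slc7a11 was at 5.79 ± 1.66 in the Ctnnb1 tumours and at 4.31 to 4.55 elsewhere. Osgin1 was highest in the Ha-ras tumours (11.05 ± 0.32), then in the Ctnnb1 tumours (10.16 ± 0.25), with control groups at 9.66 ± 0.42 and 9.58 ± 0.70. Keap1 was at 9.48 ± 0.25 in the PB controls, 9.19 ± 0.16 in the Ctnnb1 tumours, between 8.93 and 9.09 in the Ha-ras tumours and 8.96 ± 0.03 in the untreated controls, and Hmox1 was at 6.00 to 6.45 in all groups.

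Among the 7 Ctnnb1 tumours, tumour 7 stood out. It was the highest of the 7 for 5 of 10 members, Nqo1, Gclc, Srxn1, Txnrd1 and Slc7a11, where it was the highest for 22.3% of all genes. Slc7a11 was at 9.20 in tumour 7 and between 4.62 and 6.51 in the other 6, a log2 excess of 4.36 over their median, and of 4.35 on the second probe set. On the main probe set the median of those 6 tumours, 4.84, was below the median of the arrays, where part of a value may be background, so this excess is given without a fold. Srxn1 was at 13.24 against 10.04 to 11.38, or 5.15-fold over the median of the others, and Nqo1 was at 10.22 against 7.28 to 8.89, or 4.13-fold. For Gclc the excess was 1.46-fold and for Txnrd1 1.29-fold.

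Tumour 7 was not high for every member. Hmox1 was lowest there, at 5.65 against 6.00 to 6.64 in the others, and so was Gclm on its main probe set, at 11.65 against 11.75 to 12.08. The second probe set of Gclm disagreed, with 11.25 in tumour 7, close to the highest value of 11.26. Nfe2l2 in tumour 7 was at 10.65, near the group's median of 10.63, and Keap1 at 9.19, near its median of 9.22. The 6 other tumours still exceeded the PB controls 3.40-fold for Srxn1 and 3.17-fold for Nqo1, and without tumour 7 the same 5 members rose, where 10.9% of genes passed.

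Tumour 2 was at the other end and was the lowest of the 7 for 5 of 10 members, where it was the lowest for 12.5% of all genes. They were Nfe2l2, Nqo1, Gclc, Srxn1 and Txnrd1, with levels of 10.38, 7.28, 11.96, 10.04 and 10.65. Tumour 6 had the lowest Keap1, at 8.86 against 9.19 to 9.40 in the others, and the highest Nfe2l2, at 11.12. Its Nqo1, at 8.18, was the median of the group.

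**Figure D3:**
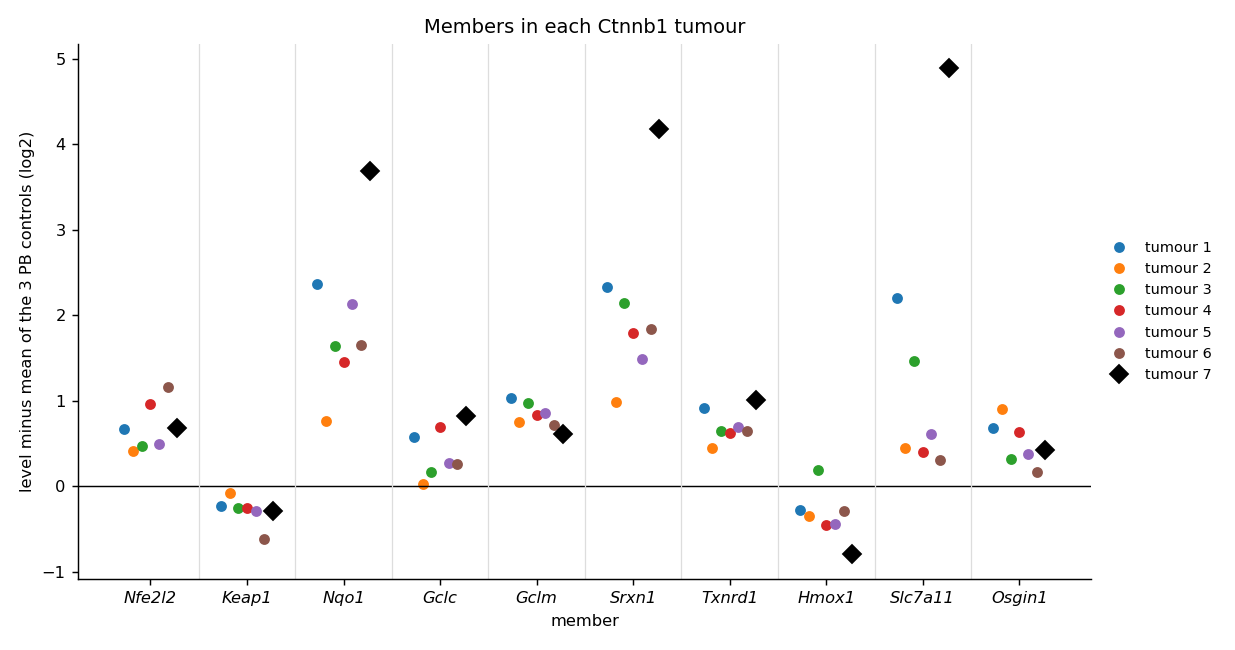
Level of each member in each of the 7 Ctnnb1 tumours minus the mean of the 3 PB controls (log2, y axis), with a colour per tumour and a black diamond for tumour 7. Tumour 7 lay apart from the others for Nqo1, Srxn1 and Slc7a11 and inside or below them for Nfe2l2, Keap1, Gclm, Hmox1 and Osgin1.

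Within the Ctnnb1 tumours 9 relations were computed, each of another member with Nqo1 (n = 7, exact permutation tests, two-sided, Benjamini-Hochberg adjusted over the 9). On the main probe sets Txnrd1 had the highest correlation with Nqo1, with r = 0.947 (exact p = 0.000198, adjusted 0.00179) and rho = 1 (exact p = 0.000397), and r was 0.870 without tumours 2 and 7, the farthest from the median of Nqo1. Srxn1 had r = 0.920 (exact p = 0.00913, adjusted 0.0393) and rho = 0.75 (exact p = 0.0663), and Slc7a11 had r = 0.895 (exact p = 0.0131, adjusted 0.0393) and rho = 0.679 (exact p = 0.110). Without tumours 2 and 7 the r of Srxn1 was 0.216 and that of Slc7a11 was 0.630, so both relations rested on these tumours. Gclc had r = 0.731 (exact p = 0.0476, adjusted 0.107), which fell to 0.033 without them. Nfe2l2 had r = 0.044 (adjusted exact p = 0.908), and Keap1, Gclm, Hmox1 and Osgin1 had r from −0.557 to −0.171, none past the threshold. Without tumour 7 alone 0 of the 9 relations passed, with r = 0.930 for Txnrd1 (adjusted exact p = 0.112, n = 6). When the probe sets of each gene were averaged, 0 of the 9 passed, and Txnrd1 had r = 0.502 (adjusted exact p = 0.479), below Srxn1 at 0.913, Slc7a11 at 0.892 and Gclc at 0.822.

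Genes whose pattern over the 7 tumours was most like that of Nqo1 were sought among the 9096 genes at or above the median level, as a description with no test. They were Cbr3 (r = 0.979), a carbonyl reductase, Crls1 (0.977), the cardiolipin synthase, Pgd (0.974), an NADPH-producing dehydrogenase of the pentose phosphate pathway, Ints3 (0.972) and Nae1 (0.971). Txnrd1 ranked 17 and Srxn1 49 in this order. Cbr3 ran from 5.72 in tumour 2 to 11.77 in tumour 7, and Pgd from 10.47 to 12.63 in the same 2 tumours. Without tumour 7 these r were between 0.908 and 0.939.

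Genes of the same pathway beyond the 10 members were read from lists, whose counts are to be read against the share of all genes that passed. That share was 12% for the Ctnnb1 tumours, 13.5% for the Ha-ras tumours, each against its own controls, 5.43% for the interaction and 15.1% between tumour types. Of 16 measured detoxification enzymes known as NRF2 targets, 8 rose and 0 fell in the Ctnnb1 tumours against PB controls, with a median change of 0.92. Against untreated controls, in the Ha-ras tumours, 0 rose and 5 fell, with a median of −0.36. The interaction passed for 8 of the 16, all toward higher in the Ctnnb1 tumours, and for 7 without PB control 6, where Gsta4 did not pass. The array's probe sets for glutathione S-transferases share sequence, so the family member measured is uncertain.

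The detoxification genes that rose in the Ctnnb1 tumours were led by the glutathione S-transferases Gstm2 (1.79 ± 0.25, adjusted p = 0.000379), Gstm4 (1.18 ± 0.19, adjusted p = 0.00116) and Gsta4 (1.08 ± 0.21, adjusted p = 0.00447), with the aldehyde oxidase Aox1 (1.05 ± 0.20, adjusted p = 0.00359) and the epoxide hydrolase Ephx1 (0.97 ± 0.13, adjusted p = 0.000315). Without PB control 6, 6 of them rose, these 5 and Ugdh. In the Ha-ras tumours Gsta2 fell by 2.59 ± 0.29 (adjusted p = 1.97e-05), Aox1 by 1.47 ± 0.24 (adjusted p = 0.00057) and Gsta3 by 1.20 ± 0.33 (adjusted p = 0.0243). Gstm3, Gstm4 and Ugdh, the enzyme that makes UDP-glucuronate, were already higher in PB than in untreated controls, by 1.88 ± 0.33, 1.27 ± 0.23 and 0.88 ± 0.15 (adjusted p = 0.0315 each). Of all genes 0.214% passed there. Without PB control 6, 0 of these 3 passed, where only 0.0495% of all genes did.

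**Figure D4:**
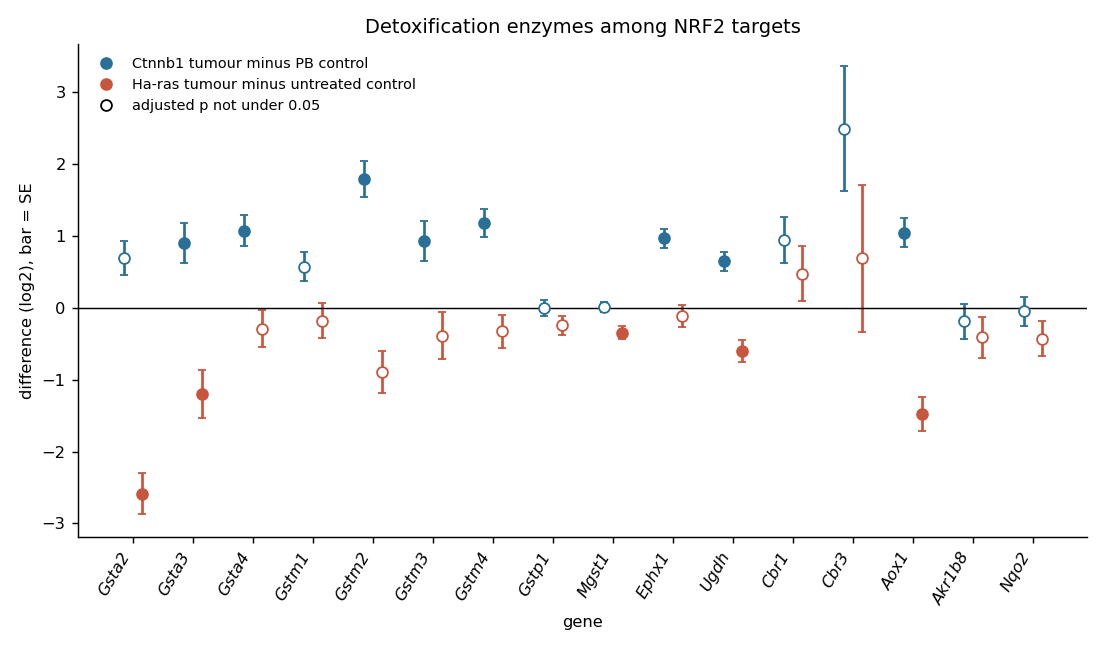
Differences (log2, y axis) of the 16 measured detoxification genes in Ctnnb1 tumours minus PB controls (blue) and Ha-ras tumours minus untreated controls (red), with SE as bars; filled points passed at an adjusted p under 0.05. The 8 filled blue points lie above 0 and the 5 filled red points below it, with Gsta2 the lowest at −2.59.

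Of 10 regulators of NRF2 measured, 1 rose in the Ctnnb1 tumours, a share close to the 12% of all genes that passed there. It was Sqstm1 (p62, which binds KEAP1), which rose by 0.68 ± 0.20 (adjusted p = 0.0402) and did not pass without PB control 6. In the Ha-ras tumours 3 rose and 2 fell. Bach1, the repressor that competes with NRF2, was at 10.11, 9.33 and 9.95 in the untreated controls and at 11.42, 10.81 and 11.10 in the Ha-ras tumours, and rose by 1.31 ± 0.20 (adjusted p = 0.000347). All 3 Ha-ras tumours were above all other arrays for Bach1, and between the tumour types it was lower in Ctnnb1 tumours (log2 difference −1.67 ± 0.17, adjusted p = 4.5e-06).

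The small MAF partners moved in opposite directions in the Ha-ras tumours. Maff rose by 1.64 ± 0.44 (adjusted p = 0.0212) and Mafk by 0.47 ± 0.13 (adjusted p = 0.0302), while Mafg fell by 0.92 ± 0.21 (adjusted p = 0.0081). The NRF2 relative Nfe2l1 fell by 0.42 ± 0.11 (adjusted p = 0.0208). The interaction passed for Bach1 (−1.51 ± 0.26, adjusted p = 0.00247) and Mafg (1.24 ± 0.28, adjusted p = 0.0147).

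In the glutathione system, 2 of 9 measured genes rose and 0 fell in the Ctnnb1 tumours, Gss, the glutathione synthetase (0.86 ± 0.20, adjusted p = 0.0124), and Gpx4, which reduces lipid peroxides (0.82 ± 0.11, adjusted p = 0.000295). Without PB control 6 Gpx4 rose and Gpx3 fell, and Gss did not pass. The Ha-ras tumours had 2 rises and 3 falls. Gss (1.02 ± 0.24, adjusted p = 0.00917) and Gpx4 (0.54 ± 0.13, adjusted p = 0.0122) rose there too, while Glrx, the glutaredoxin, fell by 1.17 ± 0.18 (adjusted p = 0.000386), Gpx1 by 1.09 ± 0.18 (adjusted p = 0.000634) and Chac1, which degrades glutathione, by 1.33 ± 0.32 (adjusted p = 0.0109). Gss and Gclm, which act in the same short pathway, thus differed in direction in the Ha-ras tumours.

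Of 9 thioredoxin and peroxiredoxin genes 2 rose in the Ctnnb1 tumours, Prdx3 by 0.82 ± 0.12 (adjusted p = 0.000531) and Prdx4 by 0.45 ± 0.14 (adjusted p = 0.0498), and the thioredoxin inhibitor Txnip fell by 0.65 ± 0.19 (adjusted p = 0.0325), of which Prdx3 passed without PB control 6. Txnrd3 fell in the Ha-ras tumours and 0 rose. Of 6 haem and iron genes 2 rose in the Ctnnb1 tumours, the biliverdin reductase Blvrb (1.86 ± 0.24, adjusted p = 0.000202) and the ferritin heavy chain Fth1 (0.74 ± 0.18, adjusted p = 0.0139). Slc40a1, the iron exporter, fell in the Ha-ras tumours and 0 rose. Of 5 efflux pumps 2 rose in the Ctnnb1 tumours, Abcc4 (2.78 ± 0.61, adjusted p = 0.00859) and Abcc2 (0.89 ± 0.16, adjusted p = 0.00216), and 0 passed in the Ha-ras tumours.

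Of 5 genes that supply NADPH, the cofactor of Nqo1 and Txnrd1, 0 passed in either tumour type against its controls, but 4 were higher in Ctnnb1 than in Ha-ras tumours, led by the malic enzyme Me1 (1.62 ± 0.48, adjusted p = 0.0303) and the transketolase Tkt (0.72 ± 0.21, adjusted p = 0.0274). Of 4 superoxide dismutase and catalase genes 0 rose in either tumour type against its controls, 1 fell in the Ctnnb1 tumours (Sod3, by 1.06 ± 0.23) and 2 in the Ha-ras tumours, Sod3 (by 1.17 ± 0.28) and the mitochondrial Sod2 (by 0.77 ± 0.15).

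ATF4, a transcription factor of the amino acid response, shares Slc7a11 with NRF2. Of 9 measured genes of this response, including Atf4 itself, 5 rose and 0 fell in the Ha-ras tumours, where Slc7a11 did not pass. They were led by Psat1, of serine synthesis (3.45 ± 0.35, adjusted p = 7.5e-06), and Trib3 (1.99 ± 0.29, adjusted p = 0.00022). In the Ctnnb1 tumours 2 rose and 0 fell, Psat1 (1.09 ± 0.29, adjusted p = 0.0241) and Ddit4 (0.57 ± 0.15, adjusted p = 0.0196), and without PB control 6 it was Psat1 alone.

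Markers of other liver cells were counted in the same comparisons. Of all 18193 genes 1087 fell in the Ctnnb1 tumours and 1151 in the Ha-ras tumours. Kupffer cell and macrophage markers fell for 5 of 12 in the Ha-ras tumours, with a mean level of 6.79 to 8.84 against 8.45 to 9.23 in the untreated controls. Clec4f fell by 2.46 ± 0.58 and Vsig4 by 2.38 ± 0.71 on the log2 scale there, beside a Hmox1 difference of 0.04 ± 0.26. Stellate cell and fibroblast markers fell for 3 of 8 in the Ctnnb1 tumours and 2 of 8 in the Ha-ras tumours, and endothelial markers for 1 of 8 and 0 of 8. Of 6 hepatocyte markers 1 fell in the Ctnnb1 tumours, Serpina1c (by 0.31 ± 0.08), and 0 passed in the Ha-ras tumours. Without PB control 6 the counts in the Ctnnb1 comparison were 0 of 6 hepatocyte, 0 of 8 endothelial and 2 of 8 stellate cell and fibroblast markers. Of all genes 7.35% passed there in either direction. The part of these cell types in the member values was not tested.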

How the data were processed

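The authors deposited log2 values, 1 per probe set and array, which they made with RMA in R 2.14.1, per the submitters' processing notes. RMA corrects background, quantile-normalizes arrays and summarises probes, so levels are relative and low values may be background. No scanner files or detection calls were used.

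Probe sets were named from the platform annotation and checked by Entrez identifier against RefSeq (GRCm38.p6). Of 45101 probe sets, 64 were array controls, 34945 had 1 symbol, 932 several and 9160 none. Of those with 1 symbol 34741 matched by identifier and 0 were renamed. A gene is represented by its probe set of highest mean over the arrays (18193 genes). Of the 10 members 3 had 1 probe set. The groups came from the labels.

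The tests used limma 3.58.1 (R 4.3.3): a linear model of the 4 group means on all 16 arrays, with moderated standard errors from eBayes and contrasts for the 5 comparisons. "Rose" and "fell" mean an adjusted p under 0.05, by the Benjamini-Hochberg method across the gene table or, in a second fit, across 45037 probe sets. Values after ± are standard errors for differences and SD for group means, and folds are 2 to the power of the log2 difference. Within the Ctnnb1 tumours exact permutation tests were run in Python 3.11.15 with scipy 1.17.1. The number of arrays limits the precision. The fit was tested on simulated data.

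The members, lists, tests and alternatives were chosen with earlier results of these data known. Named genes were the members, up to 4 passing genes with the largest change and up to 2 opposing genes per list and comparison, up to 3 markers per cell type, and the 5 genes most like Nqo1. Ggt1, Prdx1, Prdx5, Prdx6, G6pdx, Gsta1, Htatip2, Ftl1, Tf and Spp1 had no probe set that carried their symbol alone and count as not measured. Probe sets with several symbols were not searched for them.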

Additional observations from a re-analysis of the deposited data

Results flagged for a closer look

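Among the 7 Ctnnb1 tumours, the gap between the highest or lowest tumour and its neighbour was set against the whole range of the group. This share was large enough to stand out (Dixon's test at 95%) for 11 of 69 probe sets scanned. The nominal rate of this test is about 1 in 20, but the probe sets share the same 7 arrays and some belong to 1 gene. The listed genes among them were taken because they had passed in a comparison, and all genes were not scanned. The count is therefore not read as an excess for this pathway. For the members this share of the range was 0.614 for Keap1, through the low value of tumour 6, and 0.588 for Slc7a11, through tumour 7. For Srxn1 it was 0.579, 0.600 and 0.663 on 3 probe sets, all through the high value of tumour 7. Among genes of the pathway lists it was 0.619 for Tkt (highest), and, at the low end, 0.599 for Abcc2, 0.694 for Gpx4, 0.596 for Mgst1, 0.658 for Sod3 and 0.603 for Txnip.

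The change in the Ctnnb1 tumours differed from that in the Ha-ras tumours by the interaction in limma for 1 member, Gclm by 1.48 (log2), where 5.43% of genes passed. In the fit over all probe sets, where 3.34% passed, a second probe set of Txnrd1 passed (1.04) while its other probe sets did not. The second probe set of Gclm did not pass there (adjusted p = 0.0581). Of the listed genes the difference was toward the Ctnnb1 tumours for Gsta2 (3.28), Gstm2 (2.68), Blvrb (2.56), Aox1 (2.52), Gsta3 (2.10), Gstm4 (1.51), Gsta4 (1.36), Glrx (1.36), Ugdh (1.25), Mafg (1.24), Ephx1 (1.08), Gpx1 (1.04) and Txn1 (0.75), of which Gsta4 and Txn1 did not pass without PB control 6. It was toward the Ha-ras tumours for Psat1 (−2.36), Trib3 (−2.25) and Bach1 (−1.51).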

How the results depend on the processing

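The count of members that passed in the Ctnnb1 comparison was 5, where 12% of all genes passed. When each array was left out, it ranged from 2 (without PB control 6, 7.35% of genes) to 6 (without PB control 5, 12.2%, where Hmox1 fell). It was 2 when PB control 6 and Ctnnb1 tumours 6 and 7 were dropped jointly (7.6%). With the Gapdh gap as a covariate it was 0 (836 of 18193 genes). This covariate, like the omissions for the pathway lists, was chosen after seeing the data. For the interaction the count was 1 to 2 when each array was left out, where 3.56% to 6.47% of genes passed. Between tumour types it was 3 to 6, where 9.59% to 15.8% passed. The mean of all probe sets of a gene gave 1 member in the Ha-ras comparison (13.4% of genes) and 2 in the interaction (5.24%).

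The replicate number as a block gave 5 members in the Ha-ras comparison instead of 3, adding Gclc and Srxn1. Of all 18193 genes 2324 passed with the block and 2462 in the main fit. Same-numbered arrays of the Ctnnb1 comparison deviated together with correlations of 0.13, 0.087 and −0.12, where different numbers gave −0.18 to 0.15. In the Ha-ras comparison the same numbers gave 0.030, 0.40 and 0.24, and different numbers gave −0.32 to 0.071. The main fit did not pair the samples, and whether the numbers mark pairs was not tested. Txnrd1 in the Ctnnb1 comparison was 0.66 with the block (adjusted p = 0.07).

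Of the pathway lists, under the same joint omission, the glutathione count in the Ctnnb1 comparison was 4 and the ATF4 count 1, and the latter was 1 to 2 without PB control 6 or Ctnnb1 tumour 7. Relations with Nqo1 past the threshold numbered 0 to 3 when each tumour was left out and 0 with the mean of all probe sets.

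No member that passed changed direction under any alternative. Values that did not pass and changed sign were, with the mean of all probe sets, 0.040 for Keap1 in the Ctnnb1 comparison, −0.12 for Txnrd1 and 0.14 for Slc7a11 in the Ha-ras comparison, 0.048 for Nfe2l2, 0.021 for Keap1 and 0.11 for Gclc in the interaction, −0.091 for Nfe2l2 and −0.17 for Txnrd1 under PB alone, and r = 0.285 for Gclm with Nqo1. Slc7a11 in the Ha-ras comparison became 0.020 with median centring, 0.076 with quantile normalization and 0.081 with array weights. Keap1 became −0.012 (quantile) and Hmox1 −0.0043 (weights) there. Gclm under PB alone became 0.21 (the 3 arrays left out), 0.16 (weights) and 0.24 (Gapdh covariate).

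Leaving out each array gave, in the Ha-ras comparison, −0.0083 to 0.071 for Keap1, −0.038 to 1.12 for Nqo1, −0.026 to 0.12 for Hmox1 and −0.36 to 0.23 for Slc7a11. It gave −0.33 to 0.12 for Gclc in the interaction, and under PB alone −0.19 to 0.21 for Gclm, −0.050 to 0.32 for Txnrd1 and −0.22 to 0.46 for Osgin1. Hmox1 between tumour types was −0.032 to 0.13. For r with Nqo1 the ranges were −0.288 to 0.230 (Nfe2l2), −0.697 to 0.225 (Keap1), −0.500 to 0.654 (Gclm), −0.743 to 0.014 (Hmox1) and −0.538 to 0.096 (Osgin1). The causes of these changes were not tested. Groups of 3 arrays and values near background limit what can be detected, above all for Slc7a11 and the weaker Txnrd1 probe sets.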
